A study of Homo sapiens with 24 samples.

Results

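The 10 genes described here encode glutathione transferases and proteins related to them: GSTP1 of the pi class, GSTM2, GSTM3 and GSTM4 of the mu class, GSTO1 of the omega class, GSTZ1 of the zeta class, the kappa-class enzyme GSTK1, the membrane-bound enzymes MGST2 and MGST3, and GSTCD, which carries a transferase-like domain. They were taken by name from the 58138 gene names in the count tables. GSTP1 was put first because its level in 1 cell line, RPRD1B_FL, was already known to be close to 0, so its own values in that line are given as a description with no test. The question for the other 9 genes was whether any of them was higher where GSTP1 was missing.

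Glutathione transferases join the thiol of the tripeptide glutathione to electrophilic compounds, among them drugs, lipid peroxidation products and environmental toxins, and the conjugates are pumped out of the cell. Soluble classes work as dimers in the cytosol, kappa-class enzymes sit in mitochondria and peroxisomes, and the membrane-bound MGST enzymes belong to a separate protein family that also handles leukotrienes and lipid peroxides. GSTP1 is the main soluble form in many cultured cells and is known for the silencing of its promoter by DNA methylation in prostate cancer. Several transferase genes respond to NFE2L2 (NRF2), a factor that binds antioxidant response elements and is held down by KEAP1, while BACH1 occupies the same elements as a repressor.

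Steady-state polyadenylated RNA was counted in 24 libraries in 12 groups of 2, made with a kit that reads the 3′ end of each transcript, to ask what the RPRD proteins do to RNA levels. RPRD1A, RPRD1B and RPRD2 are partners of the C-terminal tail of RNA polymerase II. HEK293T, a human embryonic kidney line carrying the SV40 large T antigen, gave 16 libraries after siRNA transfection: the control siRNA group CTRL and 7 silenced groups labelled RPRD1A_KD, RPRD1B_KD, RPRD2_KD, RPRD1A_RPRD1A_KD (a label kept here as written), RPRD1A_RPRD2_KD, RPRD1B_RPRD2_KD and RPRD1A_RPRD1B_RPRD2_KD. Flp-In T-REx 293, a related kidney line made for insertion of a tetracycline-inducible gene, gave 8: FLP (untreated), FLP_TET (with tetracycline), RPRD1B_FL (untreated) and RPRD1B_FL_TET (with tetracycline). The labels give transfection or induction as 48 h. FLP and FLP_TET are called the parent line below and the other 2 Flp-In groups the RPRD1B_FL line. Whether that line was 1 clone or a pool, and whether the replicates were separate cultures, is not given in the labels, so p-values here measure the spread between these libraries, which may be technical.

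Counts in genes numbered 1817246 to 3135625 per HEK293T library and 2342969 to 3531106 per Flp-In library, so 3 counts correspond to between 0.85 and 1.65 CPM, the unit of reads scaled to a common library size. RPRD1A was at 157 ± 6.53 CPM (SD, n = 2) in CTRL and at means of 19.2 to 25.7 CPM in the 4 groups that name it. It was also lower in groups that do not name it, at means of 92.0 CPM in RPRD1B_KD, 84.9 in RPRD2_KD and 75.5 in RPRD1B_RPRD2_KD. In Flp-In cells RPRD1A was at 56.2 CPM in FLP_TET and 26.3 CPM in RPRD1B_FL_TET. RPRD2 was at 98.1 ± 2.29 CPM (SD, n = 2) in CTRL and 32.0 to 59.9 CPM in the 4 groups that name it. RPRD1B was at 27.7 ± 0.202 CPM (SD, n = 2) in CTRL and at 7.55 to 10.3 CPM in the 3 groups that name it, but also at 10.9 ± 4.17 CPM (SD, n = 2) in RPRD1A_RPRD1A_KD, which does not. It was at 30.7 CPM in FLP_TET and 78.5 CPM in RPRD1B_FL_TET. All 6 HEK293 markers examined (PAX2, NEFL, NEFM, INA, GATA3, LIN28B) were present in both kinds of cell, and 5 blood markers summed to at most 0.76 CPM per library. Of 5 epithelial markers, EPCAM, CDH1 and KRT19 made up a sum of 452 to 892 CPM in the Flp-In libraries against 9.83 to 24.3 CPM in HEK293T, while KRT5 and KRT14 had 0 counts in both. The 5 fibroblast markers summed to 2.23 to 17.6 CPM, with COL1A2 and DCN at 0. The second RPRD1A_RPRD2_KD library stood apart from the other HEK293T libraries, and its values are given separately where they bear on a result.

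GSTP1 lies on chromosome 11 at chr11:67583812-67586653 on the + strand (GRCh38). The 250 bases before its start are shown because the element that NFE2L2 and the related AP-1 factors can bind lies in them. They span chr11:67583562-67583811 of GRCh38.p14, are credited to RefSeq and are printed 5′ to 3′ on the + strand. Capitals mark the match to the antioxidant response core TGACNNNGC, which here also contains the AP-1 site TGACTCA.

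GSTP1: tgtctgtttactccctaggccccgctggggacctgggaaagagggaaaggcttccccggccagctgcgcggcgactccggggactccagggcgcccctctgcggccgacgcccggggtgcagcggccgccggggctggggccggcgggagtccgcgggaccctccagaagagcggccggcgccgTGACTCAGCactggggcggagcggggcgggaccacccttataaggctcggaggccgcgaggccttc

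The match is TGACTCAGC, 66 to 58 bases before the start (chr11:67583746-67583754), and the 2 motifs overlap. With both strands searched over windows of the same length, TGACNNNGC occurred in 10.91% of 35116 promoters and TGACTCA in 4.20%. Among the 9 of the 10 genes found in the promoter table, only GSTO1 also held TGACNNNGC, at 2 places, and TGACTCA was in GSTP1 alone. The GSTP1 window holds 28 CG dinucleotides, as many as or more than which were found in 15.86% of promoters (median 11), so it is a CG-rich promoter. GSTZ1 also had 28, GSTM3 had 1, and the first listed GSTCD start had 21. These matches describe letters in the reference sequence. Neither binding nor methylation was measured here.

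GSTP1 fell into 3 separate levels over the 12 groups. It was abundant in every HEK293T library, about an order of magnitude or more lower in the parent Flp-In line, and nearly absent from the RPRD1B_FL line. CPM were computed with TMM scaling over all 24 libraries. Because each transcript is read at 1 end, they are not divided by length.

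In CTRL the 2 libraries held 2475 and 1725 CPM, a mean of 2100 ± 530 CPM (SD, n = 2), which ranked GSTP1 as gene 39 of 17700 with a count. Over all 16 HEK293T libraries the lowest value was 1494, the median 1957 and the highest 2475 CPM. The group means ran from 1804 ± 438 CPM (SD, n = 2) in RPRD2_KD to 2235 ± 307 CPM (SD, n = 2) in RPRD1A_RPRD2_KD. Neighbouring groups in that order differed by less than the spread between their libraries, so no order among the 8 HEK293T groups can be read. In 7 of the 8 groups the library numbered 1 had the higher GSTP1 value, RPRD1A_RPRD2_KD being the exception.

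In FLP the 2 libraries held 106 and 102 CPM, from 278 and 356 counts, with a mean of 104 ± 2.59 CPM (SD, n = 2). In FLP_TET they held 146 and 150 CPM, with a mean of 148 ± 3.51 CPM (SD, n = 2). All 4 parent libraries lay below every HEK293T library. GSTP1 was gene 1574 of 21017 in the parent line.

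RPRD1B_FL gave 0 and 2 counts of GSTP1, that is 0 and 0.764 CPM. RPRD1B_FL_TET gave 2 and 3 counts, that is 0.764 and 1.34 CPM. These values are at or below the limit that 3 counts set, and GSTP1 was gene 14405 of 20508 in this line. The parent held 1559 counts against 7 in the line, a ratio of 184 (95% interval 89.1 to 458). The ratio was 278 (76.7 to 2303) without tetracycline, on 634 against 2 counts, and 144 (61.3 to 443) with it, on 925 against 5. The intervals cover counting error only, and because GSTP1 was chosen for its level in this line they are not a test. Between all HEK293T libraries and the line the ratio was 2867 (1391 to 7130).

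**Figure D1:**
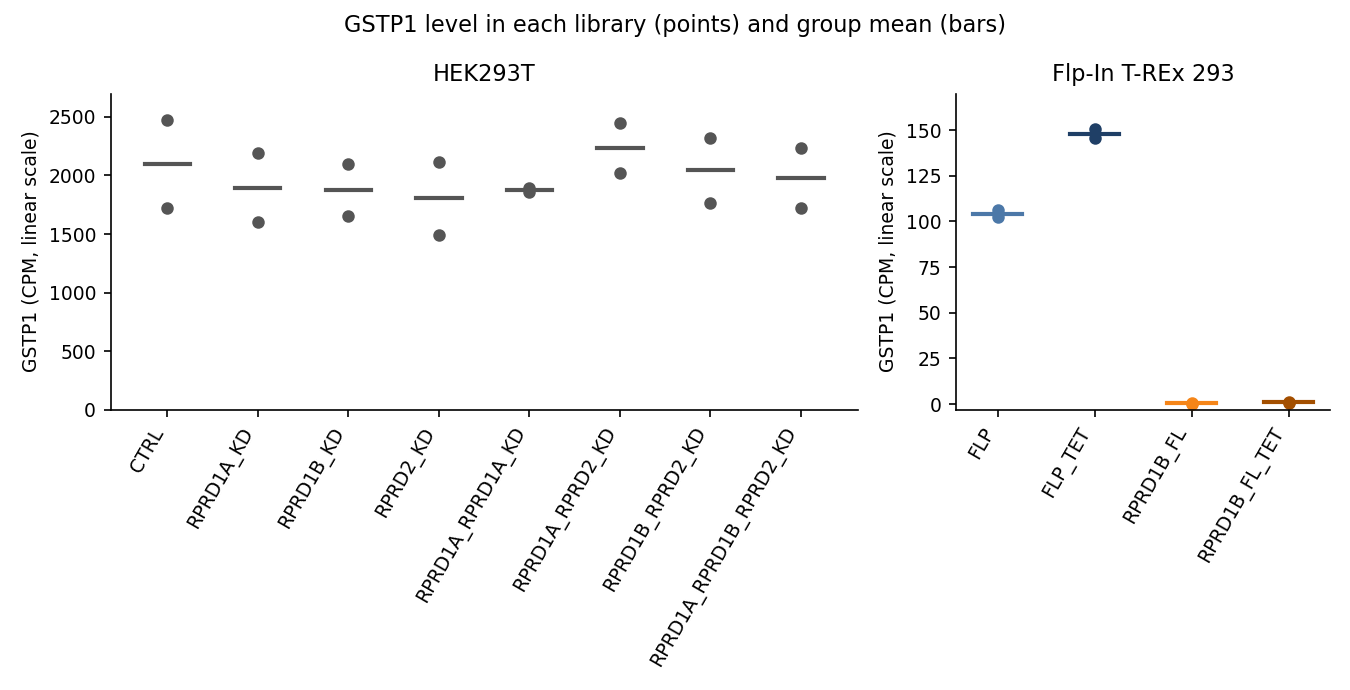
GSTP1 in CPM (linear scale) in each library, HEK293T groups on the left and Flp-In T-REx 293 groups on the right with its own axis. Points are libraries and bars are group means (n = 2). HEK293T libraries lie between 1494 and 2475 CPM, parent libraries between 102 and 150 CPM, and RPRD1B_FL libraries between 0 and 1.34 CPM.

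Such a loss was rare in the line. Of 8871 genes with a mean of 10 CPM or more in the parent libraries, 4 had a mean under 1 CPM in the line, GSTP1 among them. GSTP1, which had been chosen for this loss, had the third lowest log2 fold change of 11948 genes. The other 3 of the 4 were CEBPE, a myeloid transcription factor, at 102 against 0 CPM, COL2A1, a cartilage collagen, at 47.9 against 0.697 CPM, and LCP1, an actin-bundling protein of blood cells, at 48.3 against 0.447 CPM. CTRL held 0 CPM of CEBPE, 20.7 of COL2A1 and 0.724 of LCP1. GSTP1, at 2100 CPM, was the only one of the 4 with a higher level in CTRL than in the parent line. CEBPE, COL2A1 and LCP1 were picked by these values and are on chromosomes 14, 12 and 13.

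The genes beside GSTP1 did not share the loss. The 9 tested genes described around it (RPS6KB2, TMEM134, PITPNM1 and CDK2AP2 before it, NDUFV1, NUDT8, NDUFS8, CHKA and KMT5B after it) span 785.2 kb. The nearest, NDUFV1, a subunit of mitochondrial complex I, starts 20.3 kb after the GSTP1 gene. NDUFV1 was at 105 ± 17.1 CPM (SD, n = 4) in the parent and 116 ± 11.9 CPM (SD, n = 4) in the line. CDK2AP2, a cell-cycle regulator 75.6 kb before the gene, was at 22 ± 6.80 and 20.9 ± 3.68 CPM (SD, n = 4 each). Between the line and the parent 0 of the 9 were called in edgeR's test, where 4.08% of all 11948 genes were called, and 1 had an unadjusted p under 0.05. Their log2 fold changes ran from -0.44 to 0.32, with a median of 0.01 against 0.00 over all genes. On the whole of chromosome 11, 6 of 593 tested genes were called higher and 13 lower.

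The other transferases were next compared between the RPRD1B_FL line and the parent, with both tetracycline states together (4 libraries a side). None of them was called higher in the line. Of the 9, 7 could be tested, because GSTM2 and GSTM4 had 0 counts in all 8 Flp-In libraries. A gene was called at a Benjamini-Hochberg adjusted p under 0.05 across the 11948 genes that passed the filter (quasi-likelihood test of edgeR). That rule called 488 genes (4.08%, with 1.41% higher and 2.68% lower) in this comparison, for which GSTP1 had been chosen. It called 0 of the 7, with 0 at an unadjusted p under 0.05, and DESeq2 also called 0. The median log2 fold change of the 7 was 0.04, against 0.00 over all genes.

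GSTO1, which reduces dehydroascorbate and arsenic species, was the most abundant transferase left, at 384 and 416 CPM in FLP and 439 and 474 CPM in FLP_TET. It was at 485 and 393 CPM in RPRD1B_FL and 505 and 439 CPM in RPRD1B_FL_TET. The ranges of line and parent overlapped, and the log2 fold change was 0.09 (95% interval -0.13 to 0.30).

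MGST2, a microsomal enzyme able to make leukotriene C4, had the largest positive difference. It was at 85.1 and 111 CPM in FLP, 124 and 121 CPM in FLP_TET, 126 and 120 CPM in RPRD1B_FL, and 153 and 108 CPM in RPRD1B_FL_TET. One RPRD1B_FL_TET library was the highest and one FLP library the lowest, and the other 6 lay together. The log2 fold change was 0.20 (-0.06 to 0.46), adjusted p 0.43 by edgeR.

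MGST3, its membrane-bound relative with peroxidase activity, varied least, from 201 to 221 CPM in the 4 parent libraries and from 203 to 229 CPM in the 4 line libraries. Its log2 fold change was -0.01 (-0.22 to 0.20). GSTM3, a mu-class enzyme known from testis and brain, ran from 44.3 to 75.4 CPM in the parent and from 57.8 to 79.1 CPM in the line (log2 fold change -0.0005, interval -0.29 to 0.29). GSTZ1, which is also maleylacetoacetate isomerase of tyrosine breakdown, ran from 55.8 to 75.7 CPM and from 61.5 to 79.5 CPM (0.04, -0.20 to 0.29). In all 3 the ranges of line and parent overlapped.

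GSTK1, the mitochondrial and peroxisomal form, was at 17.6 to 27.2 CPM in the parent and 21.4 to 24.5 CPM in the line (0.07, -0.26 to 0.40). GSTCD was the lowest of the 7, at 8.78 to 14.5 CPM in the parent and 9.55 to 12.8 CPM in the line (-0.19, -0.62 to 0.24). Its counts were 22 to 47 per library, and it had the widest interval. With both states together, the upper ends of the 7 intervals lay between 0.20 and 0.46 on the log2 scale, and rises within them could not be told from none with these libraries.

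**Figure D2:**
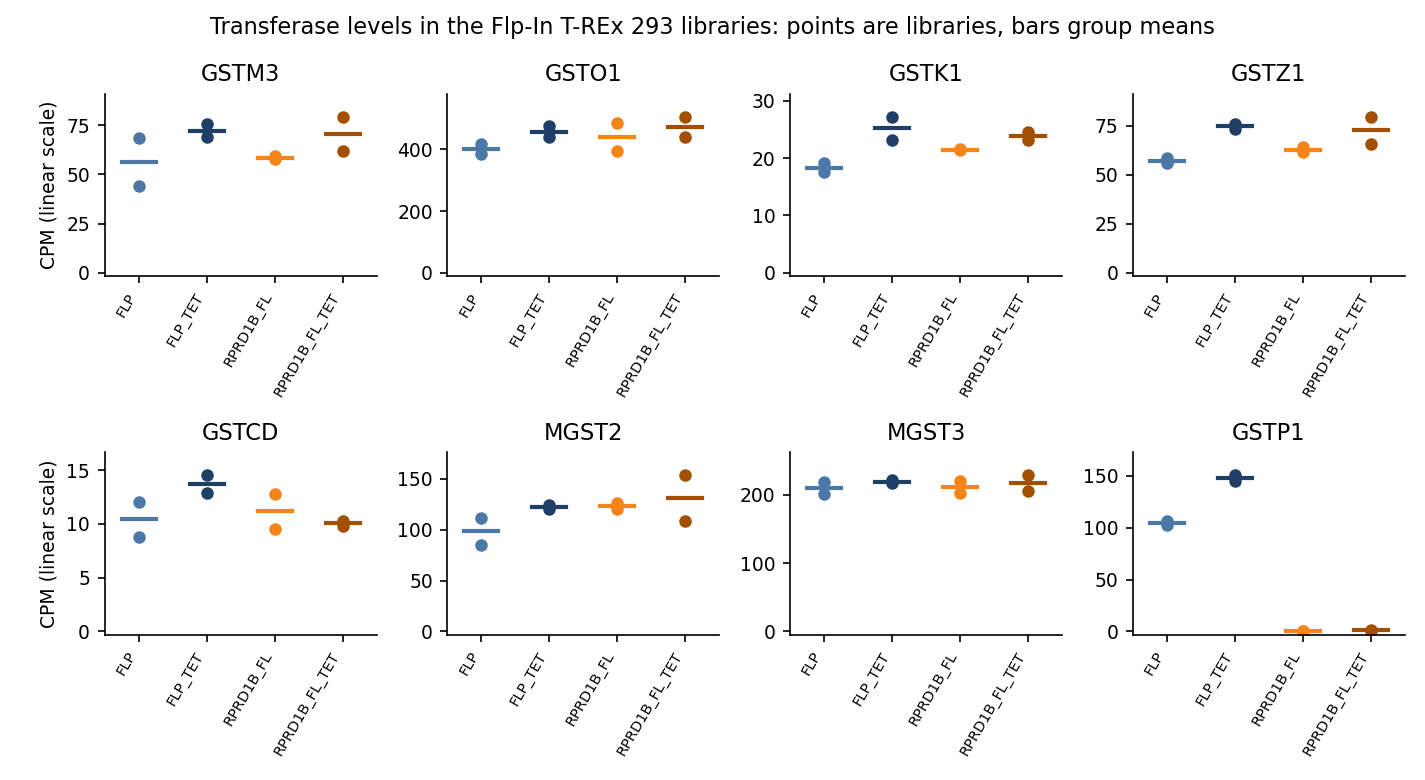
CPM (linear scale, each panel with its own axis from 0) of the 7 tested transferases and GSTP1 in the 8 Flp-In T-REx 293 libraries. Points are libraries and bars are group means (n = 2). In the first 7 panels the ranges of the parent (blue) and the RPRD1B_FL line (orange) overlap, and in the GSTP1 panel they do not.

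Within each tetracycline state the count of calls was also 0. With tetracycline (1.11% of all genes called) 0 of the 7 were called in edgeR's test, 0 had an unadjusted p under 0.05, and DESeq2 called 0. The log2 fold changes lay between -0.46 and 0.08. Without tetracycline (1.18% of all genes called) the counts were again 0, 0 and 0. There all 7 values were above 0, from 0.01 to 0.32, with a median of 0.14 against 0.01 over all genes. For MGST2, GSTK1 (21.6 and 21.4 against 19.1 and 17.6 CPM) and GSTZ1 (64.0 and 61.5 against 58.4 and 55.8 CPM) both RPRD1B_FL libraries lay above both FLP libraries, and for the other 4 the groups overlapped. The share of all genes separated in this way was not computed, so this is a description only. The upper ends of the 95% intervals without tetracycline reached 0.72 for GSTK1, 0.69 for GSTCD and 0.69 for MGST2. Each library's GC relation (defined with the tetracycline results) ran from -0.49 to 0.60 in the line and from -0.55 to 0.47 in the parent. The epithelial markers summed to 452 to 639 CPM in the parent and 537 to 892 CPM in the line, and the markers' part in these values was not tested. With a GC correction 0 of the 7 were called in each of the 3 line comparisons. The uncalled direction thus differed between the states, and the test of that difference is given with the tetracycline results.

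Of 16 other transferase genes and relatives examined, 8 had 0 counts in all 24 libraries (GSTA1, GSTA2, GSTA5, GSTM1, GSTM5, GSTT1, GSTT2, GSTT2B), and 4 stayed under a mean of 1 CPM in the HEK293T libraries, the parent and the line (GSTA3, HPGDS, LTC4S, ALOX5AP). None of these 12 reached a mean of 1 CPM in the line. The 4 that were expressed were GSTA4, which conjugates 4-hydroxynonenal, GSTO2, MGST1 and the prostaglandin E synthase PTGES. With both states together none was called, where 4.08% of all genes were, and 1 had an unadjusted p under 0.05. GSTA4 was at 16.8 and 16.4 CPM in FLP, 11.1 and 16.2 CPM in FLP_TET, 9.51 and 11.5 CPM in RPRD1B_FL, and 8.79 and 12.1 CPM in RPRD1B_FL_TET. Its log2 value over the parent was -0.53 (SE 0.21), with an unadjusted p of 0.017 and an adjusted p of 0.16 in edgeR's test, and 1 parent library lay within the line's range. PTGES was at 4.58 and 3.45 CPM in FLP, 8.65 and 8.95 CPM in FLP_TET, 6.22 and 3.82 CPM in RPRD1B_FL, and 4.21 and 3.13 CPM in RPRD1B_FL_TET. With tetracycline its log2 value over the parent was -1.25 (SE 0.41, unadjusted p 0.0054, adjusted p 0.19 by edgeR). The tetracycline effects of line and parent differed by -1.60 (SE 0.60, unadjusted p 0.014, adjusted p 0.99 by edgeR), and neither value was called. The 14 transferase pseudogene names held 13 counts in all. Reads that map to several places were not counted (9.56 to 14.6% of reads were not unique), so this does not show how many reads these copies share with the genes.

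**Figure D3:**
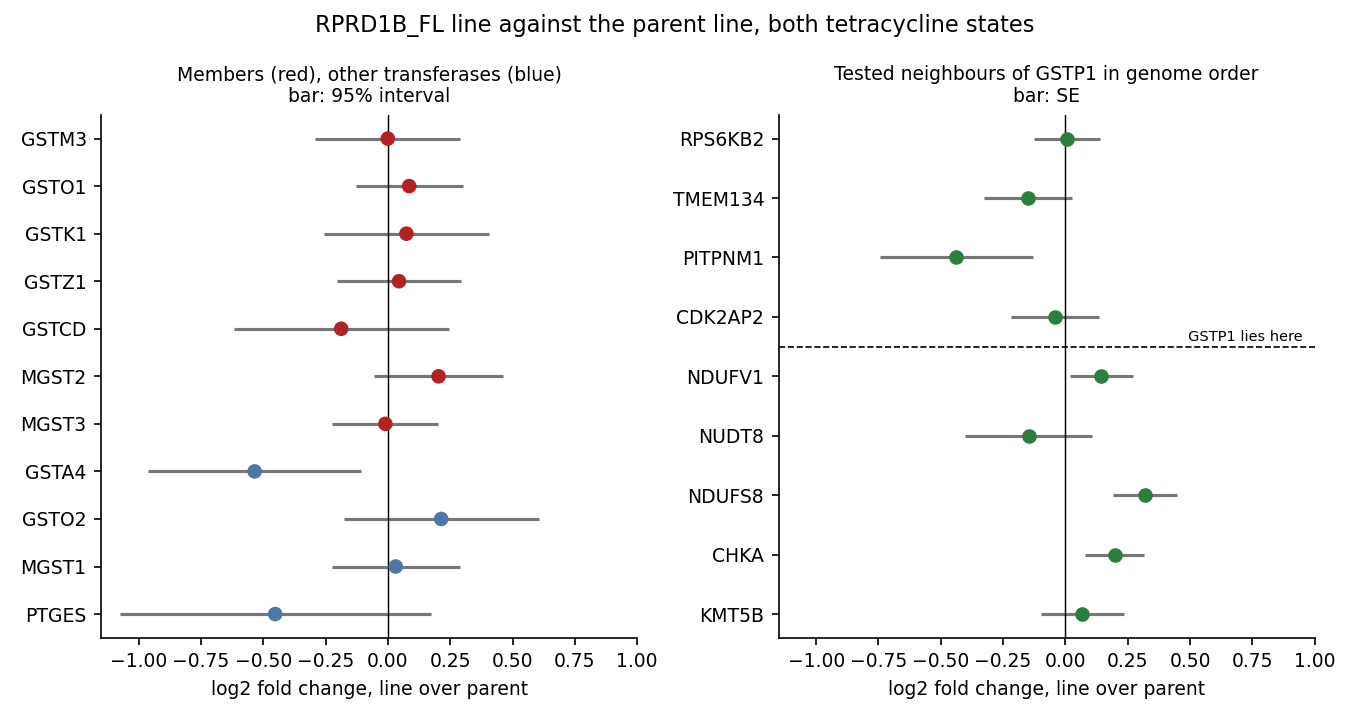
Log2 fold changes of the RPRD1B_FL line over the parent, both tetracycline states together (8 libraries, edgeR). Left, 7 transferases of the set (red) and 4 others (blue) with 95% intervals, of which GSTA4 alone has an interval that excludes 0. Right, 9 tested genes around GSTP1 in genome order with standard errors, all between -0.44 and 0.32.

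Summed over the genes, the 10 transferases held 1043 ± 110 CPM (SD, n = 4) in the parent and 963 ± 92.4 CPM (SD, n = 4) in the line, and the ranges overlapped. The 9 others together held 917 ± 87.6 CPM (SD, n = 4) in the parent and 962 ± 92.6 CPM (SD, n = 4) in the line. The ranges, 801 to 995 and 868 to 1080 CPM, overlapped. The line held 125 CPM less GSTP1 than the parent, 27.3 CPM more GSTO1 and 16.7 CPM more MGST2, the latter 2 within the spread of their libraries, and the remaining members differed by at most 1.82 CPM. GSTP1 was 66.2 to 76.7% of the 10-gene sum in HEK293T, 10.2 to 13.1% in the parent and 0 to 0.147% in the line. The 10 genes together held 2883 ± 489 CPM (SD, n = 2) in CTRL, 955 ± 68.0 in FLP, 1132 ± 18.9 in FLP_TET, 928 ± 83.6 in RPRD1B_FL and 997 ± 118 in RPRD1B_FL_TET. A CPM is a share of a library's reads, so less RNA per cell cannot be told apart from more of other RNA.

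**Figure D4:**
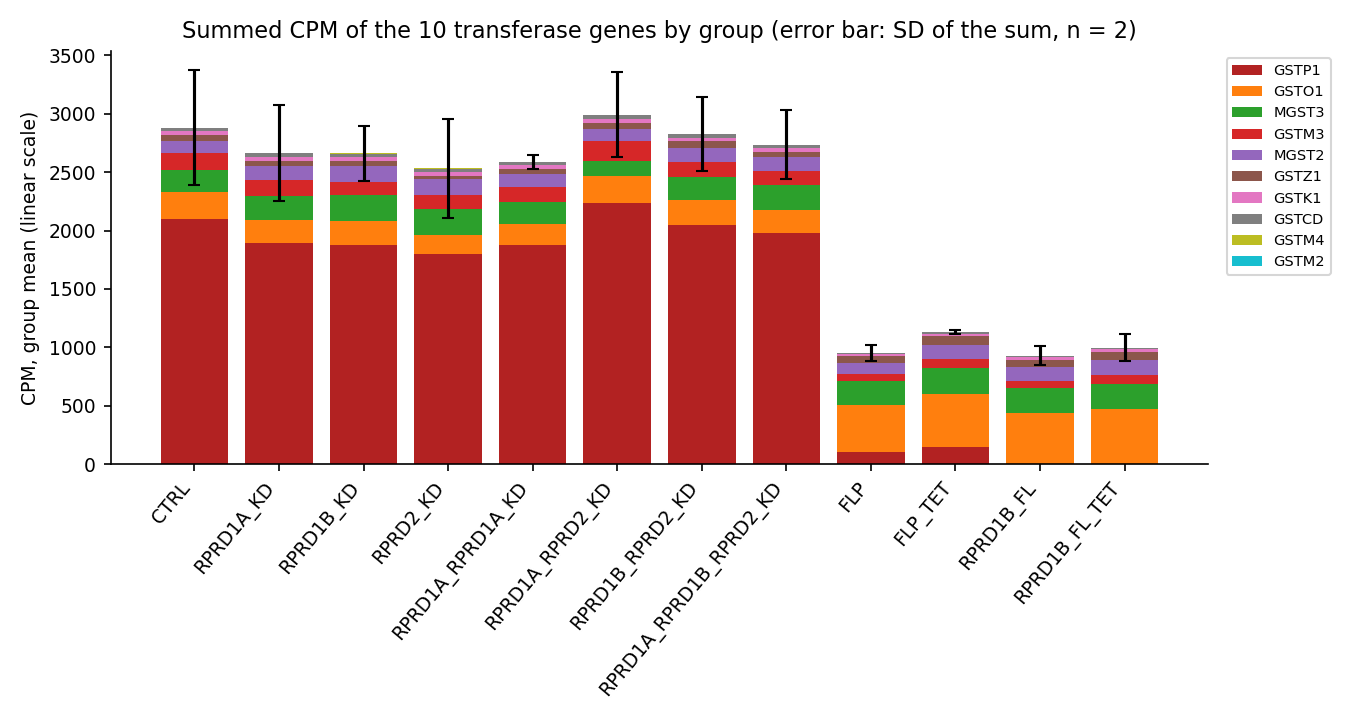
Group means of the 10 transferase genes stacked in CPM (linear scale), by group, with the SD of the sum as an error bar (n = 2). GSTP1 (dark red, at the base) makes up most of each HEK293T bar, a small part of the FLP and FLP_TET bars and none that can be seen in the RPRD1B_FL bars, where GSTO1 (orange) is the largest part.

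The rest of the glutathione pathway was then examined in the line against the parent. None of the genes on the lists for it was called higher, where only 1.41% of all genes were. The 12 tested genes of glutathione synthesis and turnover had 0 calls (2 at an unadjusted p under 0.05), and the 3 tested genes of conjugate export had 0 (0 at an unadjusted p under 0.05). Of 12 glutathione-using peroxidases and reductases, 1 was called lower: GPX8, a peroxidase of the endoplasmic reticulum, at 11.4 ± 2.23 CPM (SD, n = 4) in the parent and 6.35 ± 1.17 CPM (SD, n = 4) in the line (log2 fold change -0.85, SE 0.24, adjusted p 0.048 in edgeR's test). The ranges did not overlap, and the share of all genes so separated was not computed. Over all genes 2.68% were called lower in this comparison, and GPX8 was called in neither tetracycline state alone.

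Among the 5 tested regulators of NFE2L2 signalling 1 was called lower, where 2.68% of all genes were called lower and 1.41% higher. BACH1, the repressor at antioxidant response elements, was at 13.1 ± 2.04 CPM (SD, n = 4) in the parent and 4.87 ± 1.22 CPM (SD, n = 4) in the line. On the log2 scale the difference was -1.44 (SE 0.25, adjusted p 7.8e-04 by edgeR). Of 17 tested NFE2L2 targets 0 were called higher and 2 lower, both carbonyl reductases: CBR1, at 92.8 ± 10.1 against 57.9 ± 10.6 CPM (SD, n = 4 each, log2 fold change -0.68), and CBR3, at 28.8 ± 8.19 against 14.9 ± 2.93 CPM (SD, n = 4 each, log2 fold change -0.95). BACH1, CBR1 and CBR3 all lie on chromosome 21, where 74 of 97 tested genes were called lower and the median log2 fold change was -0.75. The part of that chromosome-wide difference in these 3 values was not tested. BACH1, CBR1 and CBR3 were also called lower without tetracycline, and with it 0 of the regulators and targets were called. The 17 targets together had a median of 0.02, against 0.00 over all genes.

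Tetracycline was then compared with no tetracycline within each Flp-In line. In the parent, where 1.02% of all genes were called, edgeR called 0 of 8 tested members and DESeq2 called 0. In edgeR's test 2 of the 8 had an unadjusted p under 0.05, as did 2711 of all 11948 genes. All 8 log2 fold changes were above 0, with a median of 0.36 against -0.01 over all genes. GSTP1 was at 106 and 102 CPM without and 146 and 150 CPM with tetracycline. Its log2 fold change was 0.50 (SE 0.17, unadjusted p 0.0070, adjusted p 0.097 in edgeR's test). Fitted on the 4 parent libraries alone, the adjusted p was 0.022 by edgeR. The share of all genes called in that fit is not given here, so how rare such a call was is not known. GSTZ1, at 58.4 and 55.8 CPM without and 75.7 and 73.6 CPM with tetracycline, had a log2 value of 0.38 (SE 0.17; edgeR adjusted p 0.18).

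Base composition moved with the same contrast. Across 8594 genes, which are not independent replicates, each library's deviation from the Flp-In mean was correlated with transcript GC content, at a Spearman rho of -0.55 and -0.36 in the FLP libraries and 0.31 and 0.47 in the FLP_TET libraries. The GSTP1 transcript has 61.2% GC, the highest of the 10. With a GC correction, chosen after seeing the data, its log2 fold change was 0.22 (adjusted p 0.42 in edgeR's test) and that of GSTZ1 was 0.21 (adjusted p 0.45).

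In the RPRD1B_FL line 0 of the 7 tested members other than GSTP1 were called for tetracycline in edgeR's test, 0 had an unadjusted p under 0.05, and DESeq2 called 0. Over all 11948 genes 0% were called there. GSTP1 had 2 counts without and 5 with tetracycline over the 2 libraries of each group, so induction of the line left it at the limit of detection. Whether tetracycline acted differently in the 2 lines was tested as an interaction, which was called for 0 of the same 7 in edgeR's test (0% of all genes called), with 0 at an unadjusted p under 0.05 and 0 called by DESeq2. Of the NFE2L2 targets, HMOX1, the heme oxygenase, was the 1 gene of the pathway lists called in the parent. It was at 54.2 and 56.4 CPM without and 87.8 and 90.5 CPM with tetracycline (log2 fold change 0.68, SE 0.17, adjusted p 0.050 in edgeR's test, just under the threshold).

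Silencing of RPRD genes in HEK293T was compared with CTRL, 7 comparisons that share the 2 CTRL libraries. Between 0.00845% and 0.0169% of 11834 genes were called in each. The tested members numbered 9, without GSTM2. In edgeR's test 0 of them were called in any of the 7 comparisons, nor in DESeq2. Leaving out the second RPRD1A_RPRD2_KD library also gave 0 in all 7, without a replicate block. By edgeR 4 of the 63 values had an unadjusted p under 0.05, 2 of them for GSTM4. Over all 11834 genes 297 to 837 per comparison had one. RPRD1A was called lower in every group that names it and RPRD2 in some. RPRD1B was called in none that name it (log2 fold change -1.77 in RPRD1B_KD, adjusted p 0.9999 by edgeR). The 0 calls thus do not show that silencing left the members unchanged. GSTP1 differed from CTRL by -0.21 to 0.07 on the log2 scale, each with an SE of 0.22. The 2 CTRL libraries themselves, at 2475 and 1725 CPM, lay further apart than any silenced mean from the CTRL mean. In RPRD2_KD the GSTP1 value of -0.21 became 0.08 without the first CTRL library and -0.48 without the first RPRD2_KD library.

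GSTO1 had a log2 fold change below 0 in all 7, from -0.49 to -0.002. It was lowest in RPRD2_KD, at 153 and 168 CPM against 217 and 236 CPM in CTRL (log2 fold change -0.49, SE 0.16, unadjusted p 0.0076 by edgeR). With 11834 genes tested its adjusted p was 0.9999 in edgeR's test, so it was not called. Without the second RPRD1A_RPRD2_KD library and with the replicate number as a block, it was called (-0.49, edgeR adjusted p 0.0043). The share of all genes called in that fit is not given here, so how rare such a call was is not known. MGST2 had one above 0 in 6 of 7, from -0.07 to 0.36. It was highest in RPRD1B_KD, at 137 and 136 CPM against 110 and 103 CPM in CTRL (0.36, SE 0.17, unadjusted p 0.052 by edgeR).

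MGST3 depended on 1 library. It was at 181 and 205 CPM in CTRL and at 175 and 83.0 CPM in RPRD1A_RPRD2_KD, a log2 fold change of -0.60 (SE 0.27; edgeR adjusted p 0.70). The value was -1.26 without the first RPRD1A_RPRD2_KD library and -0.13 without the second, each fit leaving 1 library in that group. In the other 6 silenced groups MGST3 ran from 161 to 243 CPM, and its log2 values over CTRL were 0.01 to 0.21. That second library was also the highest of the 16 for GSTM3 (221 CPM), GSTK1 (43.0 CPM), GSTZ1 (74.5 CPM) and GSTO1 (251 CPM). Its deviation had a rho of 0.45 with GC content, against -0.24 to 0.12 in the other 15 HEK293T libraries, and with a GC correction MGST3's log2 value was -0.60 (edgeR adjusted p 0.70) and 0 members were called in this comparison.

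GSTM4 and GSTM2, neighbours in the mu-class cluster of chromosome 1, were near the detection limit. GSTM4 was counted in all 16 HEK293T libraries, at 0.528 to 5.06 CPM (89 counts), and in none of the 8 Flp-In libraries, which makes it at least 17.4-fold lower there with a floor of 3 counts over the group (the exact 95% counting interval of the ratio has a lower limit of 13.9). CTRL held 3 counts of it, and its log2 fold change over CTRL was above 0 in all 7 silenced groups, from 1.04 to 2.14. The 2 largest were in RPRD1A_KD and RPRD1B_KD, which held 18 and 19 counts and are named here because of these values. The highest counts of GSTM4 in a library, 15 and 13, were in the second libraries of these 2 groups. It passed the filter through groups where it was high, so its values over CTRL are given as a description. Neither of the 2 was called in edgeR's test over libraries (adjusted p 0.9997 and 0.9999). GSTM2 gave 13 counts in 9 of 16 HEK293T libraries and 0 in Flp-In, at least 2.54-fold lower with the same floor (lower limit of the interval 1.79). Reads that map to several of the similar mu-class genes were not counted, so the levels of these genes are uncertain and may be too low.

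The replicate number went with some members in HEK293T. The library numbered 2 was higher in all 8 groups for GSTM3 and GSTCD and in 7 for GSTM4, while the library numbered 1 was higher in 7 for GSTP1. For GSTK1, GSTZ1 and MGST2 each number was higher in 4 groups, and GSTO1 and MGST3 lay between these patterns. The share of all genes ordered by number was not computed. The labels do not say whether the numbers mark a shared day or culture. Reads in no feature were 34.3 to 36.7% in the HEK293T libraries numbered 1 and 27.4 to 29.8% in those numbered 2. The part of this difference in the members' values was not tested.

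**Figure D5:**
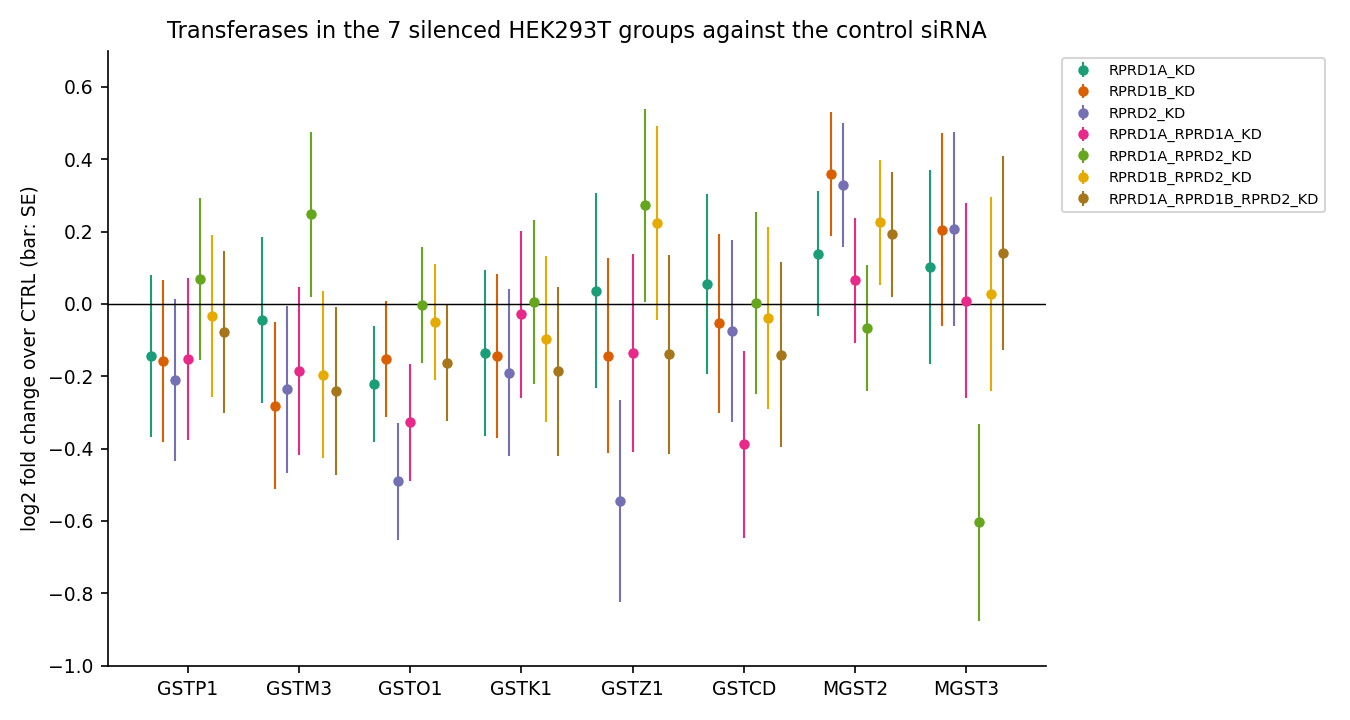
Log2 fold changes over CTRL (edgeR, 16 HEK293T libraries) of the 8 members with 10 CPM or more, in the 7 silenced groups, with standard errors. The comparisons share the 2 CTRL libraries. GSTP1 lies between -0.21 and 0.07, and MGST3 in RPRD1A_RPRD2_KD is the lowest point at -0.60.

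The pathway lists gave 0 called genes in any silenced group in edgeR's test, with 20 of 343 values at an unadjusted p under 0.05. Over all 11834 genes 297 to 837 per comparison had such a p.

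HEK293T with control siRNA was last set against the untreated parent Flp-In line, to place the transferases by cell line. Cell line, transfection and preparation cannot be told apart in this comparison, in which 33.4% of 12803 genes were called in edgeR's test. Of 9 tested members 4 were called higher in CTRL and 1 lower, against 16.1% and 17.4% of all genes. The epithelial markers also differ between these cells, by the sums given above, and their part in these values was not tested. GSTP1 was higher by 4.33 (SE 0.24, 95% interval 3.8 to 4.8 on the log2 scale, adjusted p 7.3e-13 by edgeR). The ratio of scaled counts was 19.8 (95% interval 18.3 to 21.5). That narrower interval covers counting error only and leaves out the spread between libraries.

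GSTM3, at 132 and 152 CPM in CTRL and 44.3 and 68.2 CPM in FLP, was higher by 1.32 (SE 0.24, adjusted p 1.4e-04 in edgeR's test). GSTCD, at 22.9 and 40.1 against 8.78 and 12.1 CPM, was higher by 1.59 (SE 0.27, adjusted p 7.0e-05 in edgeR's test). GSTK1, at 32.9 and 34.7 against 19.1 and 17.6 CPM, was higher by 0.89 (SE 0.23, adjusted p 0.0046 in edgeR's test). In each of the 3 both CTRL libraries lay above both FLP libraries, and the share of all genes so separated was not computed.

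GSTO1 went the other way, with 217 and 236 CPM in CTRL and 384 and 416 CPM in FLP, a log2 fold change of -0.82 (SE 0.17; edgeR adjusted p 4.3e-04). GSTZ1, MGST2, MGST3 and GSTM4 were not called. Outside the set, MGST1, a microsomal transferase, had a log2 fold change of -2.31 (adjusted p 2.6e-07 in edgeR's test) and GSTO2 one of -1.77 (adjusted p 0.0083 in edgeR's test). The parent Flp-In line thus had more GSTO1, MGST1 and GSTO2 than HEK293T and less GSTM3, GSTCD and GSTK1.

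The 9 neighbours of GSTP1 gave 0 calls between CTRL and FLP (1 at an unadjusted p under 0.05), with log2 fold changes from -0.22 to 0.81. Of the pathway lists, 3 of 17 NFE2L2 targets were called higher in CTRL and 4 lower, where 16.1% and 17.4% of all genes were. HMOX1, at 174 and 241 CPM in CTRL and 54.2 and 56.4 CPM in FLP, was higher by 1.90 (SE 0.20), and NQO1, a quinone reductase, at 15.1 and 23.1 against 4.58 and 6.33 CPM, was higher by 1.79 (SE 0.35). UGDH was the third. CBR3, at 1.67 and 3.56 against 23.9 and 40.8 CPM, had a log2 fold change of -3.54 (SE 0.41) and ME1, the malic enzyme, one of -1.66 (SE 0.26), with CBR1 and PGD the others. Glutathione synthesis had 3 genes higher (LAP3, GGT7 and the cystine transporter SLC7A11) and 2 lower (CNDP2 and glutathione reductase GSR) of 12, and the peroxidase list had 4 higher (GPX8, GPX4, GPX1, PRDX6) and 2 lower (HAGH, GLRX3) of 12. BACH1 had a log2 fold change of -1.01 and was called lower in CTRL.

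The genes whose levels followed GSTP1 most closely were named by Pearson's r of log2(CPM + 1) over the 12 group means, among 10167 genes with a mean of 10 CPM or more in any group. They were AMOT (r 0.996), KCNJ12 (0.984), SLC7A3 (0.982), TSC22D3 (0.978) and MEX3A (0.978). AMOT, angiomotin, a partner of YAP, was at 469 CPM in CTRL, 224 in the parent and 59.7 in the line, and SLC7A3, a cationic amino acid transporter, at 15.6, 3.16 and 0.207 CPM. These 12 points fall at 3 levels set by cell line, and by Spearman's rho 0 of the 5 remained, so they show genes that step down in the same order and are a description only. Of the other transferases, GSTCD (r 0.896) and GSTM3 (0.840) came nearest, and GSTO1 (-0.865) ran opposite. From parent to line these 3 showed no separate step, and their ranges overlapped. The means were 12.1 and 10.6 CPM for GSTCD, 64.2 and 64.5 for GSTM3, and 428 and 455 for GSTO1.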

How the data were processed

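The labels describe polyadenylated RNA from 24 cultured-cell libraries (QuantSeq 3′ REV kit). The authors deposited whole-number read counts per gene name for each library. FastQC, STAR, HTSeq, DESeq2 and GRCh38 are listed per the submitters' processing notes, and versions and settings are not given in the sources used here. The 5 closing summary entries of each table were left out of library totals; reads in no feature were 15.3 to 36.7% of all.

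The counts were tested with edgeR 4.0.16 (quasi-likelihood, TMM, filterByExpr with a minimum count of 10, limma 3.58.1, R 4.3.3) over all libraries of a cell line, or over all 24 for CTRL against FLP, with p-values adjusted over all genes tested. The procedure was tested on simulated data. DESeq2 1.42.0, RLE scaling, other filters, a replicate block, omitted libraries and, chosen after seeing the data, a GC correction were alternatives. CPM used TMM over 24 libraries. Ratios of summed counts carry exact 95% intervals that cover counting error only. Gene positions and promoters came from RefSeq (GRCh38.p14).

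Members, lists and tests were chosen with earlier results of these data known. The text names the members, expressed relatives, RPRD genes, the tested neighbours of GSTP1 (from 5 a side), the 5 genes most like GSTP1 and up to 6 called genes per pathway list; CEBPE, COL2A1 and LCP1 were named after their values were seen. A gene of the neighbours and one of the export list are not reported here.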

Additional observations from a re-analysis of the deposited data

Results flagged for a closer look

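MGST1, a microsomal transferase outside the set of 10, had tetracycline values on opposite sides of 0 in the 2 Flp-In lines, neither of them called. In the parent it was at 67.9 and 64.7 CPM without and 49.7 and 45.4 CPM with tetracycline, and in the RPRD1B_FL line at 50.9 and 58.8 CPM without and 61.2 and 59.9 CPM with it. Both groups of 2 were separate in each line, but the share of all genes so separated was not computed. On the log2 scale tetracycline gave -0.48 in the parent (SE 0.17; edgeR adjusted p 0.11) and 0.12 in the line (SE 0.18; edgeR adjusted p 0.91). The difference of the 2 log2 effects, line minus parent, was 0.60 (SE 0.25), with an unadjusted p of 0.024 and an adjusted p of 0.99 by edgeR, so it was not called.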

How the results depend on the processing

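The counts of called transferases (14 comparisons) were recomputed under 201 alternatives, of which 197 left them within 1.5 times of the value reported and 4 did not. With only the groups compared, 1 member (GSTP1) was called for tetracycline in the parent. Without the second RPRD1A_RPRD2_KD library and with the replicate block, 1 (GSTO1, log2 fold change -0.49, adjusted p 0.0043 in edgeR's test) was called in RPRD2_KD. Leaving out 1 library at a time gave 0 to 1 in RPRD1A_RPRD2_KD (MGST3, without replicate 1, which leaves 1 library in that group). The shares of all genes called under these alternatives are not given here. With a required fold of at least 1 on the log2 scale, 3 in place of 5 were called between CTRL and FLP (GSTP1, GSTM3, GSTCD). The cause was not tested, except that the fold limit itself removes GSTO1 and GSTK1. For the 7 other transferases in the 3 line comparisons, 270 values under the alternatives gave 0 calls and lay between -0.53 and 0.54, with a lowest adjusted p of 0.10 in edgeR's test or DESeq2. Each log2 fold change of the 5 members called between CTRL and FLP kept its sign under the alternatives.

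With the replicate block alone no count of called members changed: 0 in the 13 comparisons within a cell line and 5 between CTRL and FLP. The numbers were not treated as pairs. Deviations of same-numbered libraries had an r over 0.1 in 26 of 28 pairs of HEK293T groups (-0.01 to 0.52, median 0.38) and in 1 of 6 pairs of Flp-In groups (-0.36 to 0.46).

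Summed CPM of the 10 genes in FLP_TET was 1132 with TMM, 1152 with RLE and 1059 with plain totals. Of the 5 genes most like GSTP1, 3 were kept over 24 libraries and 0 by Spearman's rho. Depth limits GSTM2, GSTM4 and GSTP1 in the RPRD1B_FL line, each at 3 counts or fewer per Flp-In library there.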
